A study of Mus musculus with 21 samples.

Results

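Alb, Afp, Afm and Gc encode the serum proteins of the albumin family and lie on mouse chromosome 5. These 4 of the 37074 gene names on the array were chosen by name, and they were followed through the conversion of hepatocytes to culturable progenitors, with the adult genes Alb, Afm and Gc set against the fetal gene Afp. The arrays covered 7 groups of 3, all from female C57BL/6 mice: hepatocytes as isolated from the liver (fresh), and chemically induced liver progenitors (CLiPs), which are proliferating cells obtained from such hepatocytes in culture. CLiPs were profiled at passage 1 (P1) and after long culture (late, passage 12 for replicates 1 and 2 and passage 11 for replicate 3). Each stage had a day 0 group, a group kept for 8 days without inducers (uninduced) and a group kept for 8 days with oncostatin M and dexamethasone (induced), the pair of factors used here to drive the cells back toward hepatocytes. Whether replicates are separate animals or cultures is not given in the labels. The p-values rest on the spread of these samples alone, and that spread may be technical.

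The 4 proteins are secreted by the liver and share a common ancestral fold. Albumin is the main carrier protein of adult plasma, alpha-fetoprotein (Afp) is its fetal counterpart, afamin (Afm) binds vitamin E, and the Gc protein binds vitamin D and free actin. In the mouse, Afp is transcribed strongly in fetal liver and yolk sac and is shut off after birth, while Alb stays on and Afm is switched on around birth; Afp returns in regenerating liver and in many liver tumours. Alb and Afp are textbook genes of liver transcription, driven by factors such as C/EBP and FOXA proteins at their promoters and by shared enhancers downstream of Alb.

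On the RefSeq annotation of GRCm38.p6, Alb, Afp and Afm are adjacent and read on the forward strand, while Gc reads on the reverse strand and is separated from Alb by 4 other genes. The 150 bases before each RefSeq transcription start are shown because a single short string occurs once in the promoter window of every member. Capitals mark that string, the letters GTTAATNAT; sequences are from RefSeq and read 5′ to 3′ on the strand of the gene.
Alb, chr5:90460720-90460869, forward strand: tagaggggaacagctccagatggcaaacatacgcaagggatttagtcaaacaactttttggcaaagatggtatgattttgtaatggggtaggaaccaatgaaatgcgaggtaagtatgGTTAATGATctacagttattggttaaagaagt
Afp, chr5:90490564-90490713, forward strand: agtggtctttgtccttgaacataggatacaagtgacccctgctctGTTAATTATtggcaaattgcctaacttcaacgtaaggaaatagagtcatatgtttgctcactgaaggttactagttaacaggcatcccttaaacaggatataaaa
Afm, chr5:90518799-90518948, forward strand: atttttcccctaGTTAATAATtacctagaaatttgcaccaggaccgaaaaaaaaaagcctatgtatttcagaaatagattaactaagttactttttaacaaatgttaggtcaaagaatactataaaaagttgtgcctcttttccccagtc
Gc, chr5:89457899-89458048, reverse strand: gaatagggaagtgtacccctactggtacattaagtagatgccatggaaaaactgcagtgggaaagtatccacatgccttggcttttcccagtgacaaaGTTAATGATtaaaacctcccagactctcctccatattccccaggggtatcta

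Counted from the start, where -1 is the base just before it, the string spanned -32 to -24 in Alb, -105 to -97 in Afp, -138 to -130 in Afm and -52 to -44 in Gc. It was on the strand of the gene in each. Of 32851 RefSeq promoter windows, each from 250 bases before to 50 after a start, 263 (0.801%) hold GTTAATNAT on either strand. The letters were chosen after these promoters had been seen, so the matches describe them and are no test. TATAAA was found in the windows of Afp (-7 to -2) and Afm (-30 to -25) and not in those of Alb or Gc, against 13.6% of all promoters on either strand; a match or its absence says only which letters the window holds.

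Each member was read by a 60-base probe on the array, and Alb and Afm had a second probe each. The brighter probe represented the gene, and the spot of that probe was well above background on all 21 arrays for each of the 4 genes. The second Alb probe lies in coding sequence at chr5:90901598-90901657 of mm9, forward strand, and is shown because it gives a second reading of the same messenger: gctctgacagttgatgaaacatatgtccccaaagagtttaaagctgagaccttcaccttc. The second Afm probe was annotated to another transcript model and was well above background on only 7 of 21 arrays, including all 3 fresh arrays. A level is the log2 of the background-corrected spot signal minus the log2 of the 75th percentile signal of the same array, so 0 is the brightness that 75% of probes do not exceed. Levels of different genes come from different probes and are not compared with each other.

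The arrays differed in brightness and in handling. Late arrays were the brightest, with a 75th percentile of at least 881, against at most 789 at P1 and at most 332 for fresh hepatocytes. Between 46.1% and 60.5% of probes on an array passed the background test. Late arrays were read on another scanner and with another software version than fresh and P1 arrays, and no slide held arrays of both sets, so in a comparison of late with P1 or fresh levels the set and the stage cannot be told apart. The 3 fresh arrays were also on slides of their own, apart from the P1 arrays. All 8 hepatocyte markers examined, among them Ttr, Apoa1 and Hnf4a, were well above background on all fresh arrays, where the biliary and progenitor markers Krt19, Krt7, Epcam, Cd24a and Cldn4 were not on any. In such bulk samples, fewer cells that express a gene and less RNA of it per cell cannot be told apart.

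The members took different courses. Alb and Gc stayed among the brightest signals through P1 and then parted, Afm was highest in fresh hepatocytes and lost early, and Afp was lowest in fresh hepatocytes and highest at P1 day 0. Ranked by mean, Alb ran from fresh through P1 induced, P1 day 0, P1 uninduced, late uninduced and late induced to late day 0, and neighbours in this order overlapped for P1 day 0 with P1 uninduced and among the late groups. The order of Afp was P1 day 0, P1 uninduced, P1 induced, late uninduced, late induced, late day 0 and fresh, and the 4 groups from P1 induced to late day 0 formed a chain in which each overlapped with the next. Gc ran from fresh through P1 induced, P1 uninduced, P1 day 0, late induced and late uninduced to late day 0, where only P1 uninduced with P1 day 0, and P1 day 0 with late induced, overlapped. For Afm the fresh arrays stood above all others. P1 day 0 came next by mean, but the highest late uninduced array (2.27) and the highest late induced array (2.05) lay above its lowest array (1.92). Late day 0 had the lowest mean, and its arrays lay inside the late induced range of -2.67 to 2.05.

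**Figure D1:**
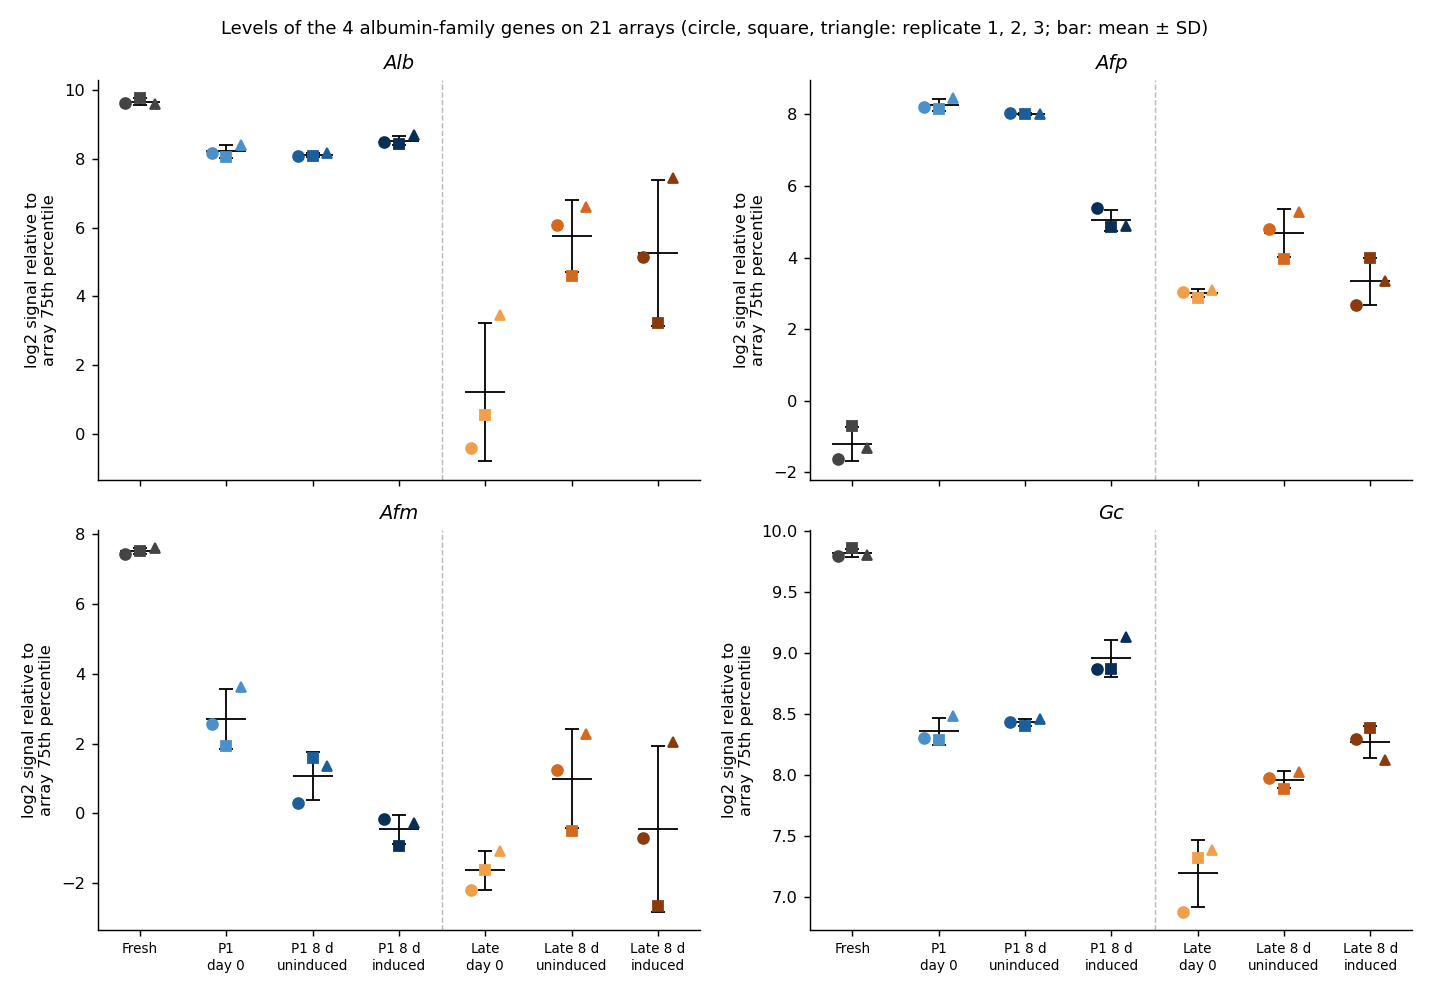
Levels of Alb, Afp, Afm and Gc on each array (vertical axes: log2 signal relative to the 75th percentile of the array, on a separate scale for each gene; horizontal axis: the 7 groups). Points are arrays, bars the mean ± SD of 3, and the dashed line separates fresh and P1 from late arrays; Afp rises from -1.22 in fresh to 8.27 at P1 day 0, and the late Alb and Afm points are widely spread.

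The first comparison asked how the cluster changed as hepatocytes became P1 progenitors. The fetal gene Afp rose and the 3 adult genes fell. Afp levels were -1.64, -0.71 and -1.32 on the fresh arrays 1 to 3, and 8.19, 8.14 and 8.46 at P1 day 0. The fresh levels lay at percentiles 64.3 to 70.8 of the probes on the array and the P1 day 0 levels at percentile 99.8, with no overlap. The difference was 9.49 on the log2 scale (SE 0.22; limma, adjusted p = 4.5e-11), a 718-fold rise. In this comparison 50.6% of the 20631 tested genes passed the threshold used throughout (an adjusted p under 0.05 and at least a 2-fold change), 25.4% higher and 25.2% lower, so that passing it was common in this comparison.

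Albumin levels were 9.64, 9.78 and 9.60 on fresh arrays and 8.18, 8.07 and 8.42 at P1 day 0. Gc levels were 9.80, 9.86 and 9.81 on fresh arrays and 8.31, 8.29 and 8.49 at P1 day 0. For both genes every fresh array lay above every P1 array. Alb fell by 1.45 (SE 0.11; limma, adjusted p = 5.4e-07) and Gc fell by 1.46 (SE 0.098; adjusted p = 1.4e-07), or 2.74-fold and 2.75-fold. Afamin fell much further: its levels were 7.45, 7.52 and 7.61 in fresh hepatocytes and 2.55, 1.92 and 3.63 at P1 day 0, a fall of 4.82 (SE 0.43; adjusted p = 1.6e-06), or 28.3-fold. The second Afm probe was also lower at P1 day 0, where 1 of 3 arrays was well above background. In a fit of all 21 arrays, whose spread includes that of the late arrays, the Alb difference had an adjusted p of 0.15.

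The size of the Alb and Gc falls depended on how arrays were scaled to each other. Before scaling, the Alb spot gave signals of 272135 to 292125 on fresh and 207093 to 248091 on P1 arrays, and the Gc spot 272563 to 299422 and 228828 to 275219. These were at most 37.5% (Alb) and 38.4% (Gc) of the saturation value in the file headers on fresh arrays, and no spot was marked saturated. Without scaling, Alb differed by -0.24 and Gc by -0.25, while the median of all tested genes stood at 1.20; with quantile normalization the differences were -0.42 and -0.31, under 2-fold, with the median of all genes at 0.13. The second Alb probe, brighter in fresh cells at 466440 to 494092, had levels of at least 10.58 on fresh arrays and of 8.38 to 9.05 at P1 day 0. Both scalings kept the direction for Alb and Gc. The Afp and Afm changes passed the threshold under every scaling tried.

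**Figure D2:**
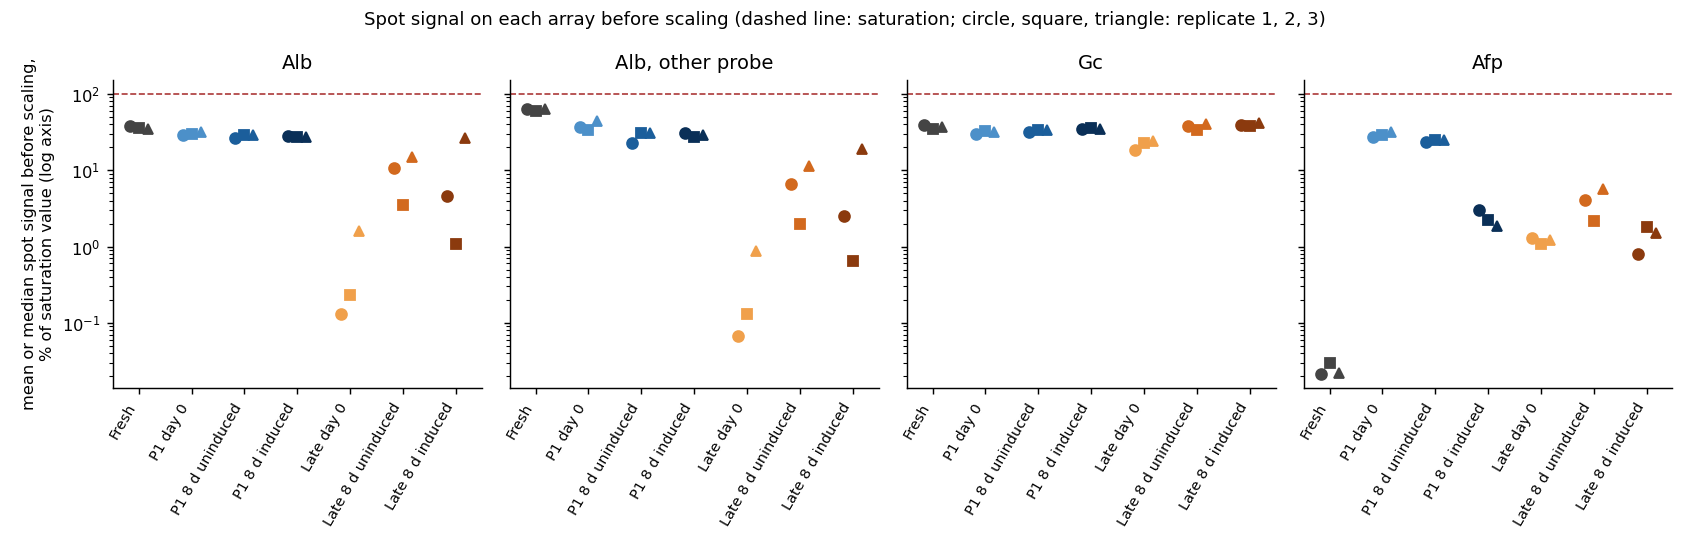
Spot signal of the Alb probes, Gc and Afp on each array before scaling, as a percentage of the saturation value (vertical log axis; the mean signal of a spot for fresh and P1 arrays, the median for late arrays), by group. Alb and Gc spots on fresh and P1 arrays lie close together below the dashed saturation line, while Afp ranges from 0.0212% in fresh cells to 31.9% at P1.

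A difference of 2 genes on the same array does not depend on a scaling that subtracts a single value from the whole array. Quantile normalization can change it, and the differences were not computed under that setting. The difference of Afp from Alb changed by 10.9 on the log2 scale between fresh and P1 day 0, that from Afm by 14.3 and that from Gc by 10.9. In each case all 3 P1 arrays lay above all 3 fresh arrays (exact permutation test, two-sided, p = 0.10, the smallest that 3 against 3 arrays can give). The P1 day 0 values of Afp minus Alb were nearly constant with the Alb probe that represented the gene, between 0.02 and 0.07. The second Alb probe varied more between these arrays, from 8.38 to 9.05, against 8.07 to 8.42 for the first.

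The second comparison followed P1 cells through 8 further days without inducers. Afp, Alb and Gc differed little and Afm fell. Afp levels at 8 days were 8.03, 8.01 and 8.00, each below the lowest day 0 array, but the difference of -0.25 (95% interval -0.74 to 0.24; limma, adjusted p = 0.42) did not pass the test. Alb differed by -0.10 (interval -0.36 to 0.15; adjusted p = 0.52) and Gc by 0.07 (interval -0.14 to 0.29; adjusted p = 0.61), so a 2-fold change of Alb, Afp or Gc lay outside these intervals. Afm fell by 1.63 (SE 0.43; adjusted p = 0.014) to 0.28, 1.57 and 1.36. In this comparison 11.1% of tested genes passed the threshold, 6.28% higher and 4.86% lower. In a fit of all 21 arrays the adjusted p of the Afm fall was 0.17, and the second probe differed by -1.21 (adjusted p = 0.31). Without P1 uninduced replicate 1, the lowest of the group, the Afm fall was 1.23 with an adjusted p of 0.053.

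With hepatic induction at P1, Afp and Afm fell, and the differences of Alb and Gc were under 2-fold. Afp went from 8.03, 8.01 and 8.00 in uninduced cells to 5.38, 4.86 and 4.87 in induced cells, with no overlap. The fall was 2.97 (SE 0.22; limma, adjusted p = 2.1e-06), or 7.86-fold, in a comparison where 18.7% of genes passed the threshold, 9.68% higher and 9.02% lower. Induced levels remained far above those in fresh hepatocytes, by 6.26 (SE 0.22; adjusted p = 1.7e-09), in a comparison in which 39.1% of genes passed, 20.3% higher and 18.8% lower. On slide 4, with 1 induced and 2 uninduced arrays, the fall of Afp was 2.64, and on slide 5, with 2 induced and 1 uninduced, it was 3.13.

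Among the adult genes, Afm alone passed the threshold with induction at P1. Alb levels were 8.10, 8.08 and 8.18 in uninduced and 8.48, 8.43 and 8.70 in induced cells, a difference of 0.42 (SE 0.11; limma, adjusted p = 0.012) that was under 2-fold. Gc levels were 8.44, 8.40 and 8.46 against 8.87, 8.87 and 9.13, a difference of 0.52 (SE 0.098; adjusted p = 0.0014), also under 2-fold. All induced arrays lay above all uninduced ones for both genes on this scale, but with quantile normalization the differences were -0.03 for Alb and -0.02 for Gc, and without scaling the Alb difference was -0.03. Afm moved the other way: its levels were 0.28, 1.57 and 1.36 before and -0.16, -0.94 and -0.29 after induction, a fall of 1.54 (SE 0.43; adjusted p = 0.014), which took afamin 254-fold below fresh hepatocytes. The call for Afm rested on the probe and on single arrays: the second probe, above background on 1 of 6 of these arrays, differed by 0.75, and without P1 uninduced replicate 2, uninduced replicate 3 or induced replicate 2 the fall was 1.29, 1.39 and 1.30, with adjusted p-values of 0.059, 0.051 and 0.055. In a fit of all 21 arrays its adjusted p was 0.17.

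Relative to other members on the same arrays, Afp minus Alb changed by -3.40 and Afp minus Gc by -3.50 with induction at P1, and the 3 induced arrays lay below the 3 uninduced ones in both (exact permutation test, two-sided, p = 0.10, the smallest possible). Measured against day 0 of P1, the 8 days with inducers lowered Afp by 3.23 and Afm by 3.16 (adjusted p = 7.6e-07 and 0.00012 in limma; 23% of genes passed, 12.5% higher and 10.5% lower), and Alb and Gc differed by 0.32 and 0.60, under 2-fold, with Alb at -0.13 without scaling. Against fresh hepatocytes, induced P1 cells had lower Alb (by 2.20-fold, adjusted p = 6e-06), and Gc was 1.82-fold lower, under the threshold. With quantile normalization that Alb difference was -0.40, and in a fit of all 21 arrays its adjusted p was 0.27. The second Afm probe differed by -0.47 between P1 induced cells and P1 day 0 (adjusted p = 0.68).

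**Figure D3:**
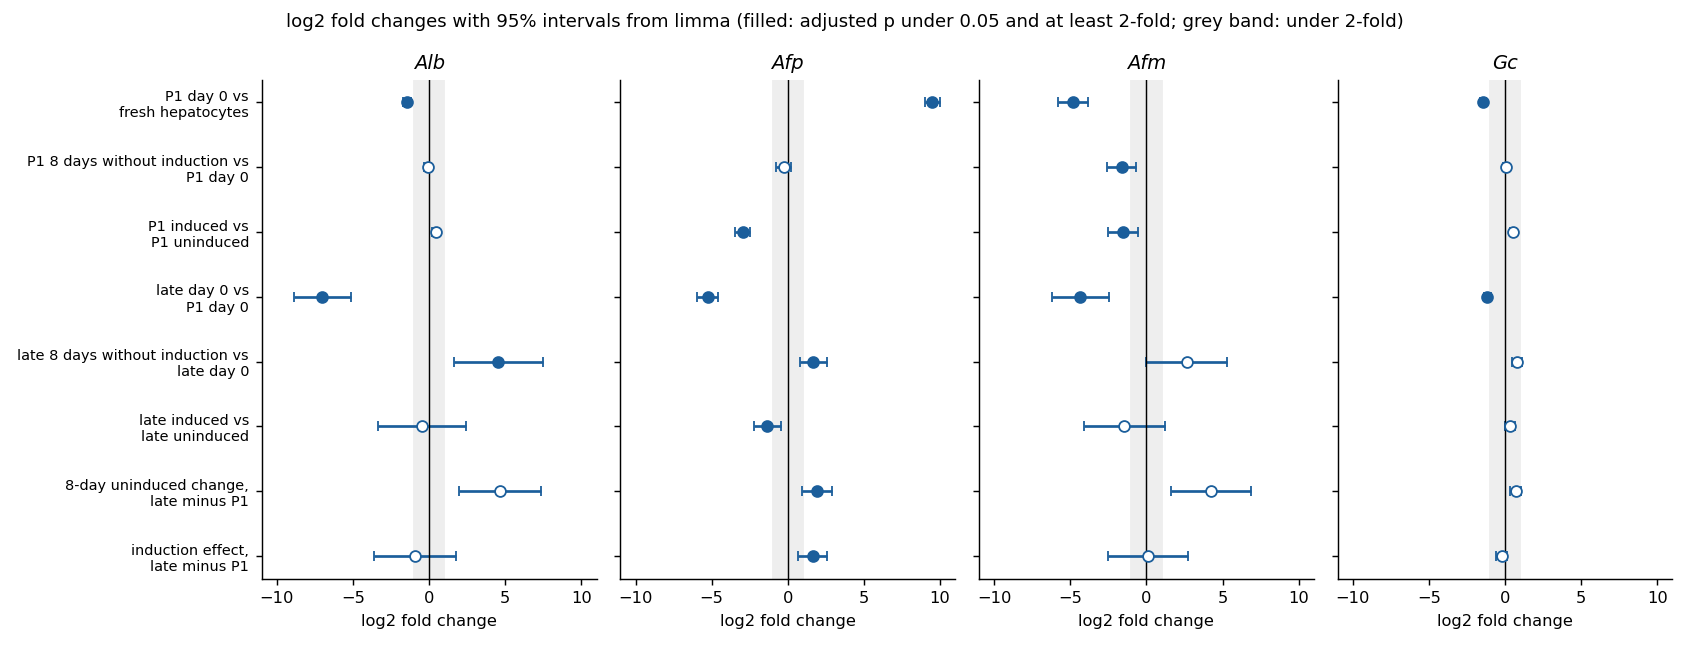
Log2 fold changes of the 4 genes (horizontal axes) in 8 comparisons, first-named group against second, with 95% intervals from limma; filled points passed the threshold and the grey band marks changes under 2-fold. The lower pair of comparisons are differences between the late and the P1 change. Intervals are narrow for Gc and wide for late Alb and Afm.

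In late CLiPs before induction all 4 members were lower than at P1 day 0. Alb levels were -0.40, 0.56 and 3.46 against 8.18, 8.07 and 8.42, a fall of 7.02 (SE 0.90; limma, adjusted p = 1.9e-05) or 129-fold. Afp levels were 3.05, 2.88 and 3.09, a fall of 5.26 (SE 0.32; adjusted p = 9.5e-09) or 38.3-fold. Afm stood at -2.21, -1.62 and -1.09, lower by 4.34 (SE 0.88; adjusted p = 0.0011), and Gc at 6.88, 7.32 and 7.38, lower by 1.16 (SE 0.12; adjusted p = 1.9e-06). No late array overlapped a P1 day 0 array for any of the 4 genes. Over all tested genes 13.4% passed, 4.33% higher and 9.11% lower. With slide as a random block the Afm fall was 3.36 with an adjusted p of 0.069, and without scaling the Gc fall was 0.48.

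Compared with fresh hepatocytes, late day 0 cells had 354-fold lower Alb, 574-fold lower Afm and 6.17-fold lower Gc, and 18.7-fold higher Afp (limma, adjusted p at most 1.6e-07; 54.7% of genes passed, 25.7% higher and 29.1% lower). Of the 4 members, Afp alone stood above its fresh level at late day 0, by 4.23 (SE 0.32). Without scaling the Gc difference from fresh cells was -0.73. The second Alb probe gave the same picture, with levels of -1.39, -0.26 and 2.60 on late day 0 arrays.

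Genes around the cluster were read beside it. Of 14 neighbours in RefSeq order, 5 on each outer side and 4 between Gc and Alb, 13 were on the array and 10 were tested. A single one, the platelet chemokine gene Pf4, was lower at late day 0 than at P1 day 0 (by 2.31, adjusted p = 0.014 in limma), none was higher, and the median difference was 0.05. Over all tested genes 9.11% were lower and 4.33% higher, so these counts were near the share of any genes. Ankrd17, the gene next to Alb, differed by -0.13 (SE 0.14) and Rassf6, beyond Afm, by 0.13 (SE 0.21). Between fresh and P1 day 0, 3 of the 10 were higher (Dck by 2.44, and Pf4 and Cxcl5, neither of them well above background on any fresh array) and 2 lower (Rufy3 and Grsf1). In that comparison 25.4% of all tested genes were higher and 25.2% lower, so these counts too were near the overall share. Cxcl5, a neutrophil chemokine, fell by 6.08 with induction at P1, and its late day 0 level was 0.45 above that at P1 (adjusted p = 0.34).

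**Figure D4:**
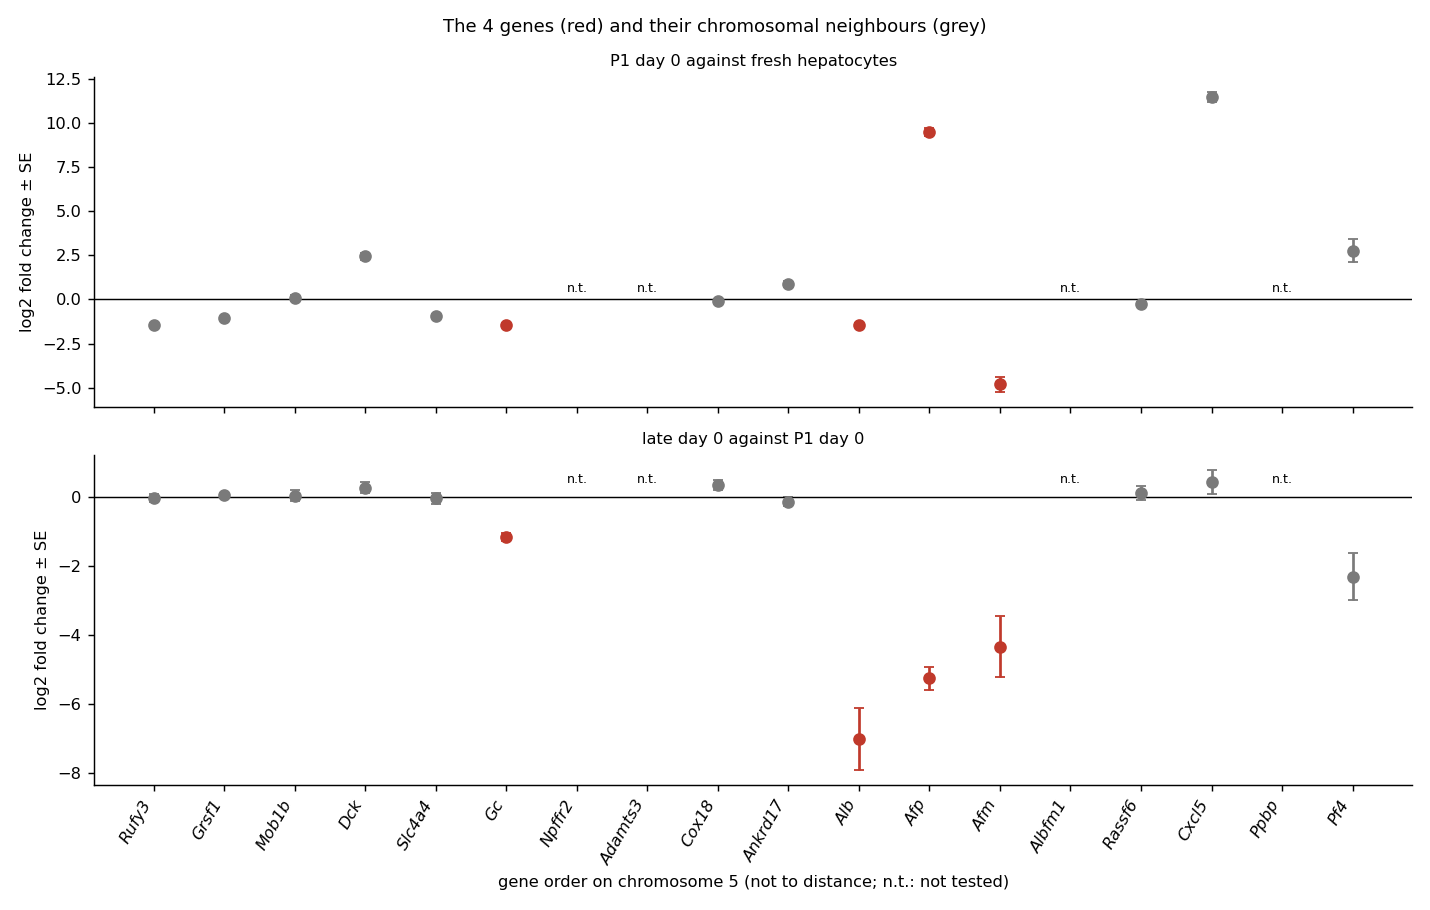
Log2 fold change ± SE (vertical axes) of the 4 members, in red, and of their neighbours, in grey, in gene order along chromosome 5, without regard to distance. At late day 0 against P1 day 0 (lower panel) the 4 members lie below 0 and all tested neighbours but Pf4 lie within 0.45 of 0.

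During 8 days of culture without inducers, Alb and Afp rose in late cells. Alb rose from -0.40, 0.56 and 3.46 at day 0 to 6.09, 4.60 and 6.60 at 8 days, with no overlap, by 4.55 (SE 1.26; limma, adjusted p = 0.019) or 23.5-fold. By replicate number the rise was 6.49, 4.04 and 3.14. Afp rose from 3.05, 2.88 and 3.09 to 4.80, 3.96 and 5.28, by 1.67 (SE 0.39; adjusted p = 0.0089). In this comparison 14.6% of genes passed the threshold, 8.19% higher and 6.37% lower. Afm went from -2.21, -1.62 and -1.09 to 1.24, -0.52 and 2.27, a difference of 2.64 (SE 1.15) that did not pass (adjusted p = 0.097); late arrays of the same number deviated together, and with the replicate number as a block its adjusted p was 0.026. Gc differed by 0.77 (SE 0.14; adjusted p = 0.0029), under 2-fold.

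The Alb rise in late cells lost its call when any of 4 arrays was left out: without day 0 replicate 1 it was 3.75 (adjusted p = 0.067), without day 0 replicate 2 4.23 (0.062), without uninduced replicate 1 4.39 (0.055) and without uninduced replicate 3 4.14 (0.063). The Afp rise kept its call without any single array, at 1.38 to 2.03, but was 1.42 with an adjusted p of 0.087 without the passage 11 arrays. The difference between late and P1 cells in this 8-day change was 1.93 for Afp (SE 0.46; limma, adjusted p = 0.025), where 2.85% of genes passed the same test, 1.74% higher and 1.11% lower. It was lost without P1 day 0 replicate 3 (1.83, adjusted p = 0.066), each of the 3 P1 uninduced arrays (1.94, 1.92 and 1.92, at 0.055, 0.051 and 0.054), late day 0 replicate 2 (1.86, at 0.056), late uninduced replicate 1 (1.87, at 0.054) or late uninduced replicate 3 (1.63, at 0.068). For Alb the difference of 4.66 missed the threshold (adjusted p = 0.051) and passed with the replicate block (0.022), and for Afm, at 4.26, the corresponding values were 0.072 and 0.026. For Gc it was 0.70, under 2-fold.

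Induction of late cells left Alb and Gc without a called change and lowered Afp less than at P1. Afp levels were 4.80, 3.96 and 5.28 in uninduced and 2.67, 3.99 and 3.34 in induced late cells, and the groups overlapped by a single array, replicate 2. The fall was 1.35 (SE 0.39; limma, adjusted p = 0.048), at -2.13, 0.03 and -1.94 by replicate number, in a comparison where 5.99% of genes passed, 2.94% higher and 3.06% lower. With the replicate number as a block its adjusted p was 0.062, and leaving out uninduced replicate 1 or 3 or induced replicate 1 or 3 gave falls of 1.29, 1.05, 1.01 and 1.35 with adjusted p-values of 0.12, 0.14, 0.13 and 0.083. The induction effect on Afp was 1.63 weaker in late than in P1 cells (SE 0.46; adjusted p = 0.02; 9.94% of genes passed this test, 4.73% higher and 5.21% lower); it was 1.27 without late uninduced replicate 2 (adjusted p = 0.053) and 1.30 without late induced replicate 2 (0.057).

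Alb in late induced cells was 5.13, 3.22 and 7.45, against 6.09, 4.60 and 6.60 in uninduced cells, a difference of -0.49 with an interval from -3.39 to 2.41 (adjusted p = 0.82). Afm was -0.72, -2.67 and 2.05, a difference of -1.44 (interval -4.08 to 1.19; adjusted p = 0.42). Both groups overlapped, and the intervals were too wide to say whether induction raised or lowered either gene. Gc was 8.30, 8.38 and 8.13 against 7.97, 7.89 and 8.03, a difference of 0.31 (interval -0.02 to 0.63; adjusted p = 0.17), with all induced arrays above all uninduced ones. Against late day 0, induced late cells had higher Alb (by 4.06, SE 1.26, adjusted p = 0.025) and Gc (by 1.07, SE 0.14, adjusted p = 0.00036), where 20.7% of genes passed, 11.1% higher and 9.61% lower. That Alb call was lost without day 0 replicate 1 (3.26, adjusted p = 0.086), day 0 replicate 2 (3.74, 0.075), induced replicate 1 (4.13, 0.057) or induced replicate 3 (2.97, 0.071), and the Gc difference was 0.92, under 2-fold, without day 0 replicate 1.

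At the end of induction, late cells had lower Alb than P1 cells by 3.27 (SE 0.90; limma, adjusted p = 0.0055) and lower Afp by 1.70 (SE 0.32; adjusted p = 0.00034), in a comparison where 21.9% of genes passed, 8.9% higher and 13% lower. With slide as a random block the adjusted p for Alb was 0.069, and without scaling the Afp difference was -0.81. Afm differed by 0.01 (interval -1.85 to 1.88) and Gc by -0.69, under 2-fold and at 0.20 without scaling. Relative to fresh hepatocytes, late induced cells kept 23.5-fold higher Afp, 21.2-fold lower Alb, 251-fold lower Afm and 2.93-fold lower Gc (adjusted p at most 0.00027; 51.3% of genes passed, 24.7% higher and 26.6% lower). With quantile normalization the Gc difference from fresh was -0.26, and without scaling it was 0.10.

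The spread between late replicates was wide for Alb and Afm. The highest and lowest late arrays differed 14.5-fold for Alb at day 0, 4.01-fold when uninduced and 18.7-fold when induced, and 2.17-fold, 6.93-fold and 26.3-fold for Afm. Among 18853 genes measured on all late arrays, the Alb span ranked at percentile 99.9, 99.4 and 99.9 in the 3 late groups, and that of Gc at 84.6, 20.3 and 39.8. Replicate 3, the only one at passage 11, was the highest in every late group for both Alb and Afm. Among all 18853 genes, 7.73% had replicate 3 highest in all 3 groups and 16% had it lowest. The late induced array of replicate 3 was also the only late array on its slide, so passage and slide cannot be told apart for it. Of 12 adult plasma protein genes measured on all late arrays, 5 had replicate 3 highest throughout. The count was 1 of 6 hepatocyte markers, 1 of 6 oncofetal genes and 0 of 9 activators of liver transcription. It was also 0 of 4 Afp repressors and 0 of 6 biliary and progenitor markers. Replicate 3 was lowest throughout for 1 of these activators and 2 of these biliary and progenitor markers. At P1 the arrays of a group spanned at most 1.27-fold for the Alb probe that represented the gene. With the second Alb probe they spanned 1.59-fold at day 0, 1.32-fold when uninduced and 1.34-fold when induced. For Afm they spanned 3.28-fold at P1 day 0, more than at late day 0, and 2.44-fold when uninduced, so wide spreads of Afm were not limited to late cells.

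**Figure D5:**
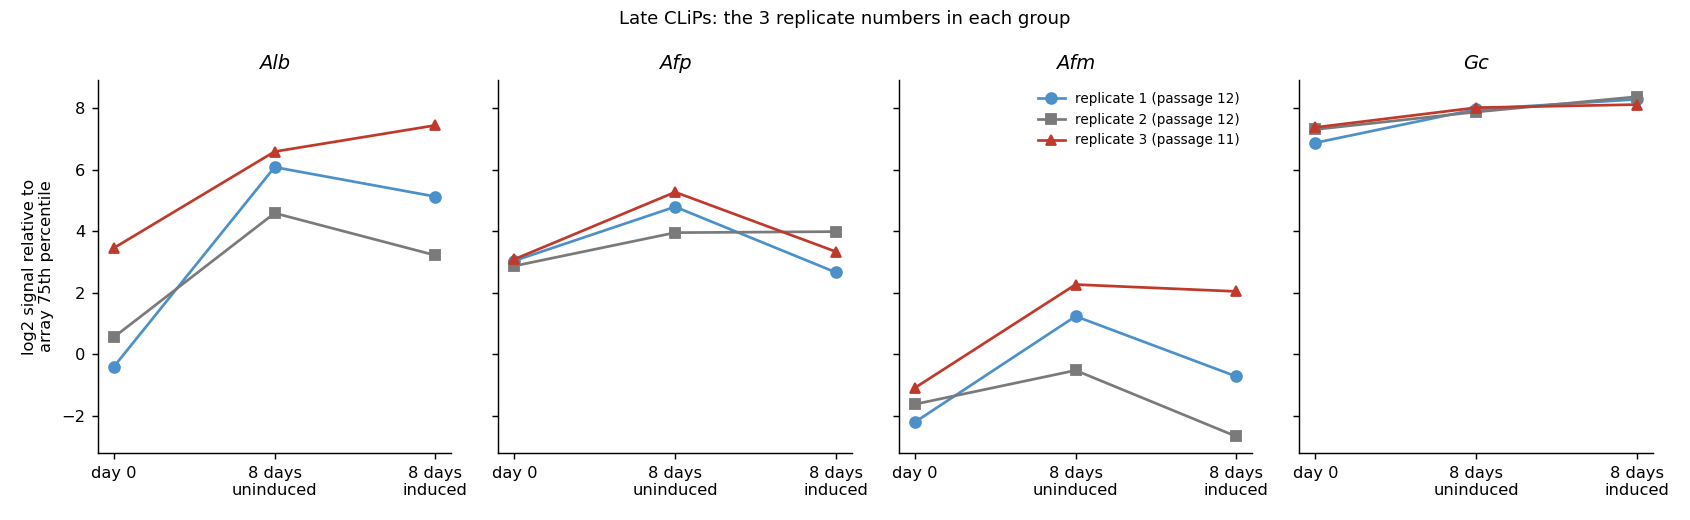
Levels of the 4 genes in late CLiPs (vertical axis: log2 signal relative to the 75th percentile of the array; horizontal axis: day 0, 8 days uninduced, 8 days induced), with arrays of the same replicate number joined. The passage 11 replicate is the top line for Alb and Afm in all 3 groups, and the Gc lines nearly coincide.

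The factors known to act on these genes were examined as lists of 13 activators of liver transcription and 4 repressors of Afp. Counts in these and the later lists stand beside the shares of all tested genes. These were 25.4% higher and 25.2% lower from fresh to P1 day 0, and 9.68% and 9.02% with P1 induction. At late against P1 day 0 they were 4.33% and 9.11%, over 8 uninduced days in late cells 8.19% and 6.37%, and with late induction 2.94% and 3.06%. Between fresh and P1 day 0, 7 of the 13 activators fell and 2 rose, with a median of -1.05 against -0.01 over all genes tested. Cebpa, a C/EBP factor of mature hepatocytes, fell by 5.50. Dbp levels were 7.51, 3.45 and 0.02 in fresh cells and -0.76, -0.81 and -0.37 at P1 day 0, and the difference of -4.31 ranged from -6.13 to -2.38 when 1 of these arrays was left out. Without fresh replicate 1, which gave -2.38, 6 activators fell and 1 rose. The difference was -2.87 for the nuclear receptor gene Nr5a2 and -1.31 for Hnf4a, while Gata6 rose by 1.04. Without scaling 4 rose and 4 fell, with Cebpb at 0.15 in place of -1.05, and with quantile normalization 2 rose and 4 fell. Of the repressors, Zfhx3 rose by 1.45 and the others did not pass the threshold: Zbtb20, which represses Afp after birth, differed by -0.71 and Trp53 by 0.96, and Zhx2 was not well above background in either group.

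With induction at P1, when Afp fell, 6 of the 13 activators rose and none fell (median 1.03 against 0.05 over all genes). Nr5a2 rose by 1.75, Cebpa by 1.56, Hnf4a by 1.31 and Foxa3 by 1.13, with 2 higher and 1 lower without scaling. None of the 4 repressors rose: Zbtb20 differed by 0.07 and Zhx2 by 0.13, and Zfhx3 fell by 1.61. At late day 0 against P1 day 0, where the whole cluster was lower, 7 of 13 activators fell and none rose (median -1.18 against -0.04). Without scaling 5 fell and 2 rose in this comparison (median -0.50 against 0.65). Foxa3 differed by -5.41 and Cebpa by -3.47, with Foxa3 well above background on 2 and Cebpa on 1 of the 3 late day 0 arrays, and Nr5a2 was at least 60.5-fold lower, not well above background on any late day 0 array. During 8 days without inducers in late cells 5 of 13 rose, among them Onecut1 by 2.93 and Cebpa by 2.54 from that mostly dim level, and so did the repressors Zbtb20 and Zfhx3, each by 1.08. Late induction raised Cebpa by 2.01 and lowered Dbp by 1.53, and no repressor passed the threshold.

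Other oncofetal genes, which like Afp are active in fetal liver and silenced in the adult, were compared as a list of 13, of which 11 were tested. At P1 day 0, 10 of the 11 were higher than in fresh cells and none was lower, with a median of 5.24 (4.79 with genes below background in fresh cells set at their bound). None of the 13 was well above background on all fresh arrays, so every tested gene had passed the background filter through a CLiP group. A rise from fresh cells was thus largely fixed by the filter, and these counts are no test of direction. H19, an imprinted non-coding RNA, rose by 5.48 from a level well above background on 1 of 3 fresh arrays, Igf2 was at least 50.7-fold higher and Dlk1 at least 27.5-fold higher. With P1 induction 5 of 11 fell and none rose (median -0.94). Dlk1 was at least 129-fold lower and Igf2 fell by 1.25, but Gpc3 and H19 differed by 0.84 and 0.92, the opposite direction to Afp, without passing.

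At late day 0, 6 of the 11 oncofetal genes were lower than at P1 day 0 and 2 higher (median -2.36). Igf2 differed by -6.89, H19 by -6.55 and Dlk1 by -6.50. At late day 0 Igf2 and Dlk1 were well above background on 1 of 3 arrays and H19 on 2 of 3, so the sizes of these differences, and of the 8-day changes from that level, rest partly on signals near background. In the same comparison Peg3 rose by 1.40 and Hmga2 was also called higher. In late cells kept 8 days without inducers 4 rose and 2 fell, with H19 up by 6.32, Igf2 by 5.08 and Dlk1 by 2.67, beside the Afp rise of 1.67. Without the passage 11 arrays the Dlk1 change was 2.41 and did not pass. Late induction raised Igf2 by 3.00, while Afp fell. Without the passage 11 arrays the Igf2 change was 2.94 with an adjusted p of 0.091.

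Of 18 adult plasma protein genes outside the cluster, 17 fell between fresh and P1 day 0 and none rose, with a median of -3.05 (12 fell with quantile normalization and 11 without scaling). The difference was -9.51 for Hrg, -8.64 for Orm1, -7.35 for Apoa2 and -1.33 for Serpina1a, beside -1.45 for Alb. P1 induction raised 13 of 18 and lowered none (median 1.77): Orm1 by 6.90, Hrg by 4.45 and Hpx by 3.82, while Serpina1a and Trf, at 0.41 and 0.64, stayed under 2-fold like Alb and Gc. At late day 0, 16 of 18 were lower than at P1 day 0 (median -2.83), and Ahsg, the fetuin-A gene, fell by 12.07 to a level well above background on 1 of 3 late day 0 arrays. During 8 days without inducers 8 of 17 rose and 1 fell (median 1.38), Hp by 4.83 and Ahsg by 7.87 from that level. Late induction raised 2 of 17, Serpina7 and, by 3.22, Apoh, and lowered none; without the passage 11 arrays it raised none.

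Genes that handle the ligands of afamin, albumin and the Gc protein were compared as a list of 10. Of 9 tested between fresh and P1 day 0, 5 fell and 2 rose (median -2.23). Over all tested genes 25.2% fell and 25.4% rose, so the rises were near that share and the falls above it, without a test of the list. Vdr and Cubn in this list were not well above background on any fresh array. With normexp background 0 of the 9 rose and 5 fell. Ttpa, which loads vitamin E for export from the liver, fell by 7.94, and Fcgrt, the receptor that protects albumin from breakdown, fell by 6.09. Cyp27a1 and Cyp2r1, liver enzymes that hydroxylate vitamin D, differed by -6.33 and -2.97. P1 induction raised Ttpa by 4.87, Fcgrt by 2.48 and Cyp27a1 by 2.22, 3 of 9 with 1 lower, while Afm fell. Known targets and receptors of the inducers served as a check: 4 of 6 rose at P1, with Socs3 by 3.73, Tat by 3.00, Fkbp5 by 2.21 and Osmr by 1.66, and 3 of 6 in late cells, with Socs3 by 2.93, Fkbp5 by 2.19 and Osmr by 1.04.

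The genes whose levels most resembled those of a member over the 21 arrays differed between the members. For Alb these were Apoe (Pearson r = 0.970), Ahsg (0.969) and the prothrombin gene F2 (0.962), and for Gc they were Trf (0.983) and Cebpa (0.978). For Afm they were Spp2 (0.965) and Gstt1 (0.941). For Afp none of the 5 nearest was a plasma protein of the list, and Sfn (0.961), St14 (0.960) and Ppm1j (0.956) came first of 16934 genes. Between members, Alb correlated with Gc at 0.835 and with Afm at 0.699, and Afp with Alb at 0.076, with Gc at -0.367 and with Afm at -0.402. Over the 9 late arrays alone Afp correlated with Alb at 0.519, with Afm at 0.564 and with Gc at 0.375, against 0.845 for Alb with Afm. These coefficients are descriptions: the 21 points fall into 7 groups of 2 array sets, the 9 late points into 3 groups, and each set shares its scaling.

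Markers of other cell types moved beside these changes. The summed level of 8 biliary and progenitor markers was 1.68 to 2.74 on fresh arrays, in units of the 75th percentile signal, and 440 to 467 at P1 day 0, where all 8 had risen. At late day 0 it was 295 to 328. Of these 8, 5 were not well above background on any fresh array. They passed the background filter through CLiP groups, so their rise is no test of direction. Spp1 made up 74.2% to 78.5% of the sum at P1 day 0. With P1 induction the sum was 694 to 815, of which Spp1 made up 90.1% to 92.3%; 1 of the 8 was higher and 4 were lower, with a median of -1.45, and the sum of the other 7 was 151 to 175 in uninduced and 55.9 to 69.1 in induced cells. Of 7 stellate and mesenchymal markers tested, 5 rose at P1 day 0, and at late day 0 5 were lower than at P1 day 0 and none higher, with a median of -5.77 and a summed level of 30.8 to 32.7 against 43.0 to 68.3. Col1a1 and Pdgfrb were not well above background on any fresh or late day 0 array, nor was Dcn on any late day 0 array. Col1a1 and Pdgfrb passed the filter through P1 groups, so their direction in these comparisons is no test. The size of a fall to late day 0 rests partly on signals near background. At P1 day 0 4 of 5 endothelial and 5 of 6 macrophage markers fell, with Kdr, Cdh5, Lyve1 and Tek below background on all CLiP arrays. On all fresh arrays 5 endothelial and 6 macrophage markers were well above background, against 2 and 2 on all P1 day 0 arrays. Most had thus passed the filter through the fresh group, and their fall is no test of direction. Of 6 yolk sac and endoderm markers, 2 rose and 2 fell, near the shares of all tested genes (25.4% and 25.2%). The 8 hepatocyte markers summed to 3099 to 3610 in fresh cells, 720 to 918 at P1 day 0, 1095 to 1326 after P1 induction and 83.4 to 202 at late day 0. Serpina1a made up 42.3% to 43.3% of this sum in fresh cells and 66% to 72.5% at P1 day 0. The sum of the other markers was 1760 to 2080 in fresh cells, 198 to 312 at P1 day 0, 407 to 505 after P1 induction and 43.6 to 83 at late day 0. The part of such shifts in the changes of the 4 members was not tested.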

How the data were processed

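The deposited files were scanner text files of 21 single-colour Agilent arrays and a pair of value tables. Per the file headers, the authors' processed signal is an intensity, background-subtracted and without scaling between arrays, from Agilent Feature Extraction 11.5.1.1 (fresh and P1) or 10.7.3.1 (late). The value tables the authors deposited are on a log2 scale; that of fresh and P1 arrays equalled the log2 signal minus the 75th percentile of the array within 0.0076 for 56605 probes, and the table of fresh and late arrays was also centred on probe medians. The build of the probe coordinates, mm9, is that of the scanner files.

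Control and outlier spots were left out, spots of a probe averaged, and the 75th percentile of each array subtracted on the log2 scale. A gene was represented by its brightest probe and tested if that probe was well above background on all arrays of a group. Group means were fitted with limma 3.58.1 in R 4.3.3 (lmFit, eBayes) over the 12 fresh and P1 arrays, the 9 late arrays, or all 21 for comparisons across them; the Benjamini-Hochberg adjustment ran over every tested gene. An array labelled with a P1 passage but titled fresh was kept as fresh. The members, lists and named genes (members in every comparison, up to 6 genes a list, neighbours, nearest genes) were chosen with earlier results of these data known; Serpina1a, Trf, Gpc3 and H19 under P1 induction were named after their values were seen. Some members of the activator list are counted but not reported here by name. A gene below background on all arrays of a group has only a bound. Same-numbered late arrays deviated together over all genes (r = 0.23 to 0.63). At P1, day 0 with uninduced (0.27 to 0.46) and uninduced with induced (0.13 to 0.34) were paired by the same rule, and day 0 with induced (-0.11 to 0.30) and fresh with P1 (-0.07 to 0.03) were not. Same-numbered P1 arrays shared a slide, except that induced replicate 2 was on another slide than day 0 and uninduced replicate 2. Pairing by number and by slide can therefore not be told apart at P1. The main fits nevertheless held no block for replicate number or slide, so their p-values treat all arrays as unpaired. Fits with the number as a block are given as an alternative, and late calls of a member that they changed are stated. That block also moved late counts of the lists. Over 8 uninduced days 5 oncofetal genes rose and 1 fell, and 5 biliary and progenitor markers rose and 0 fell. With late induction 3 plasma protein genes rose and 0 fell, 1 oncofetal gene rose and 2 fell, and 0 biliary and progenitor markers rose and 3 fell. The fits were tested on simulated data. Python 3.11.15 with numpy 2.4.6 and matplotlib 3.10.9 made the plots, statmod 1.5.0 the block correlations. Precision is limited by 3 arrays a group. Alternatives were quantile or normexp normalization (offset 50), the mean of all probes, no filter on dim probes, other fits, the slide or replicate number as a block, the authors' tables and leaving out each array; no scaling, the other probe, single slides and leaving out passage 11 were added after the data were seen.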

Additional observations from a re-analysis of the deposited data

Results flagged for a closer look

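The response of Afp to induction differed between stages: the fall was 2.97 at P1 and 1.35 in late cells on the log2 scale, and the difference of 1.63 passed a test of the interaction (SE 0.46; limma, adjusted p = 0.02). The change of Afp over 8 days without inducers also differed, from -0.25 at P1 to 1.67 in late cells, with a tested difference of 1.93 (SE 0.46; adjusted p = 0.025). Of 12 fits that each left out 1 array, 10 kept the call of the first difference (range 1.27 to 1.96) and 5 that of the second (1.63 to 2.29), which was also lost without the passage 11 arrays (1.67, adjusted p = 0.1). Each P1 and late group held 3 arrays, and the late day 0 level of Afp was 5.26 below that at P1 day 0.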

How the results depend on the processing

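The direction and call of most results held; those that did not are given here on the log2 scale, and the cause was not tested. With quantile normalization P1 day 0 against fresh was -0.42 for Alb and -0.31 for Gc, P1 induced against fresh -0.40 for Alb, late induced against fresh -0.26 for Gc and late induced against late day 0 0.97 for Gc, all under 2-fold. The sign turned for P1 induction of Alb (-0.032) and Gc (-0.022), the 8-day P1 change of Alb (0.046) and the late minus P1 induction effect on Gc (0.18). Without scaling, P1 day 0 against fresh was -0.24 for Alb and -0.25 for Gc, P1 induced against fresh -0.38 for Alb, late day 0 against P1 -0.48 and against fresh -0.73 for Gc, late induced against late day 0 0.83 for Gc and late against P1 induced -0.81 for Afp. The sign turned for Alb in P1 induced against day 0 (-0.13) and uninduced (-0.026), and for Gc in the induction difference (0.031), late against P1 induced (0.20) and late induced against fresh (0.10).

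With normexp background the 8-day difference passed for Alb (4.61) and Afm (3.90), Afp minus Alb changed by 10.38 between fresh and P1 day 0, and Afp minus Afm turned to -0.13 under late induction. With the mean of all probes Afm was -1.42 over 8 days and -0.39 with induction at P1, the late fall of Afp (-1.35) missed the threshold, the 8-day difference of Alb (4.98) passed, and the sign turned for Afm in the induction difference (-0.62) and in late against P1 induced (-0.34), for Afp minus Afm under late induction (-0.33) and for Afp minus Alb over 8 days at P1 (0.014). With the other probe Afm was -1.21 over 8 days at P1, -0.47 in P1 induced against day 0, 0.75 with P1 induction, -1.34 in the induction difference and -0.69 in late against P1 induced. With the other Alb probe the 8-day difference was 5.31 and passed, Afp minus Alb changed by 11.44 between fresh and P1 day 0 and by 0.18 over 8 days at P1; with the other Afm probe Afp minus Afm was -0.76 under late induction. Without the filter on dim probes the late calls of Afp induction (-1.35) and of Alb in induced against day 0 (4.06) were lost.

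In a fit of all 21 arrays the calls of Alb in P1 day 0 (-1.45) and P1 induced (-1.13) against fresh and of Afm in P1 over 8 days (-1.63) and with induction (-1.54) were lost, and that of Afm in late cells over 8 days (2.64) was gained. With only the compared groups the 8-day difference passed for Alb (4.66) and Afm (4.26). The replicate numbers paired the late arrays, and as a block they gained the calls of Afm over 8 days in late cells (2.64) and of the 8-day difference for Alb (4.66) and Afm (4.26), lost that of late Afp induction (-1.35), and changed no other call of a member. At P1 the numbers paired day 0 with uninduced and uninduced with induced arrays, mostly on a shared slide, and the block changed no call of a member there. P1 day 0 with induced and fresh arrays were not paired.

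Slide as a fixed block gained the calls of late Afm over 8 days (2.64) and of the 8-day difference for Alb (4.66) and Afm (4.26), lost those of late Afp induction (-1.35) and of late induced against day 0 for Alb (2.97), and turned Afm in late induced against day 0 (-0.056) and in the induction difference (-1.0). In the fit of the late arrays this fixed block was the same as leaving out late induced replicate 3, the only late array on its slide. It is therefore no separate check there. As a random block, slide ended the calls of Afm at late against P1 day 0 (-3.36) and of Alb in late against P1 induced (-2.95). Within slide 4 Afp fell by 2.64 with P1 induction, and against day 0 Afp was -2.79 and Afm -2.39. Within slide 5 P1 induced against day 0 was -3.59 for Afp, -4.25 for Afm and 0.15 for Alb, and the 8-day P1 change -0.46 for Afp, -0.24 for Alb and -0.025 for Gc. Without the passage 11 arrays the calls of Afp were lost over 8 days (1.42), with late induction (-1.05) and in the 8-day difference (1.67), those of the 8-day difference were gained for Alb (5.37) and Afm (3.90), and Afm turned in the induction difference (-0.52) and in late against P1 induced (-1.23).

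Leaving out 1 array at a time gave ranges that crossed the threshold or 0 for these results. At P1, Afm ranged from -2.02 to -1.16 over 8 days and from -1.93 to -1.29 with induction. In late cells over 8 days Alb ranged from 3.75 to 5.68. In late induced against late day 0 Alb ranged from 2.97 to 5.19, Afp from -0.001 to 0.66, Afm from -0.056 to 2.30 and Gc from 0.92 to 1.17. With late induction Alb ranged from -1.58 to 0.53 and Afp from -1.71 to -1.01. The 8-day difference ranged from 3.86 to 5.79 for Alb, 1.63 to 2.29 for Afp and 3.63 to 5.02 for Afm, and the induction difference from -2.0 to 0.11 for Alb, 1.27 to 1.96 for Afp and -1.16 to 1.20 for Afm. Late against P1 induced ranged from -1.23 to 1.13 for Afm. Afp minus Afm ranged from -0.43 to 0.27 in P1 induced against day 0, from -2.30 to 0.38 in late induced against day 0 and from -1.34 to 1.34 with late induction, where Afp minus Alb ranged from -2.21 to 0.23.

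Counts of called genes also moved. Late against P1 day 0 called 3004 genes, 1959 with normexp, 7423 without the filter and 5773 without scaling (4748 higher, 1025 lower). Late against P1 induced called 4902 (1989 higher, 2913 lower), 3200 with normexp, 12768 without the filter and 10213 without scaling (9053 higher, 1160 lower), with a split of 2533 to 2293 after quantile normalization. Without the filter 22771 genes were called at late day 0 and 21197 in late induced cells against fresh, and with normexp those splits were 4054 to 7031 and 3510 to 5944. Without scaling the split of higher to lower was 11294 to 2164 for P1 day 0 against fresh, 1308 to 3499 for P1 induction, 1608 to 4122 for P1 induced against day 0, 8795 to 2010 for P1 induced against fresh, 451 to 941 for late induction, 1765 to 2983 for late induced against day 0, 1674 to 751 for the induction difference, and 15194 to 1956 and 14515 to 1837 for late day 0 and late induced against fresh.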
